A study of Mus musculus with 7 samples.

Results

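This account covers 10 genes of DNA methylation and of Polycomb repressive complex 2 (PRC2): Dnmt1, Dnmt3a, Dnmt3b, Uhrf1, Tet2, Tet3, Ezh1, Ezh2, Eed and Suz12. They were chosen by name, and all 10 were found among the 46959 features of the table. RNA came from mouse splenic B cells cultured for 4 days with lipopolysaccharide (LPS, 1 µg/mL), a bacterial activator, and interleukin 4 (IL-4, 20 ng/mL), a cytokine that steers switching towards IgG1 and IgE. The 3 libraries labelled wild type (WT) were set against 4 libraries labelled cKO MED1, for the Mediator subunit gene Med1. All 7 cultures received the same stimulus, and the labels give no age, strain, sex or Cre driver. The labels do not tie replicates to individual animals. The p-values therefore reflect variation among these libraries, part of which may be technical. The sex-linked genes Ddx3y and Xist, given below, differed within cKO MED1, so its libraries did not all come from the same animal.

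Methylation of cytosine in CpG pairs and Polycomb marking of histone H3 are the main inherited forms of gene silencing in mammalian cells. DNMT1, brought to newly replicated DNA by UHRF1, copies methylation onto the new strand. DNMT3A and DNMT3B add it to unmethylated sites, and TET enzymes oxidise it as a step to removal. PRC2 methylates histone H3 through EZH1 or EZH2, its alternative catalytic subunits, held with EED and SUZ12. In lymphocytes EZH2 is known as the form of dividing cells and EZH1 as the form of resting cells.

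Promoter windows that hold E2F-type letters, and that of Ezh1, are shown first. Dnmt1, Uhrf1 and Ezh2 are widely described as targets of E2F factors, which act at S phase entry. The windows are RefSeq's for GRCm38.p6, from 250 bases before to 50 after a start site, written 5′ to 3′ on the gene's strand. Capitals mark the letters TTTCGCGC, TTTGGCGC or TTTCCCGC on either strand.
Dnmt1 (chr9:20952574-20952873, minus strand): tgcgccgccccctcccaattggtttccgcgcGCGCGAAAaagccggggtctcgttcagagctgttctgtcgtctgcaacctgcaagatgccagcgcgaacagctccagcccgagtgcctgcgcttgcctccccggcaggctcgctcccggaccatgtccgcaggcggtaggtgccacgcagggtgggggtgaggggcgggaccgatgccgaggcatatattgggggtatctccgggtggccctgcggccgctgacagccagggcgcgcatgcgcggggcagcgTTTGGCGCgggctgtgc
Uhrf1 (chr17:56304063-56304362, plus strand): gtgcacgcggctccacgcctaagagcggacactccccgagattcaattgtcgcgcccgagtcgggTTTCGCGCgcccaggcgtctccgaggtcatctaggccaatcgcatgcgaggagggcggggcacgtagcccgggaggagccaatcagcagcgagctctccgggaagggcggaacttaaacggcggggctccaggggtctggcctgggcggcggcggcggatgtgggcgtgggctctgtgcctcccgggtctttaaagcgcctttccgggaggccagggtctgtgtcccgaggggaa
Ezh2 (chr6:47594981-47595280, minus strand): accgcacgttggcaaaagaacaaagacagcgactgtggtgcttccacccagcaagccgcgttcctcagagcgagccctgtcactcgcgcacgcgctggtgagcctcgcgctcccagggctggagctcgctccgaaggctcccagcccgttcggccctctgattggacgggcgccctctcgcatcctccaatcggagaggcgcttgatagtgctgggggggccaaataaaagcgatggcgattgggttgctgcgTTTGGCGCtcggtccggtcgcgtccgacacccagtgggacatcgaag
Suz12 (chr11:79992856-79993155, plus strand): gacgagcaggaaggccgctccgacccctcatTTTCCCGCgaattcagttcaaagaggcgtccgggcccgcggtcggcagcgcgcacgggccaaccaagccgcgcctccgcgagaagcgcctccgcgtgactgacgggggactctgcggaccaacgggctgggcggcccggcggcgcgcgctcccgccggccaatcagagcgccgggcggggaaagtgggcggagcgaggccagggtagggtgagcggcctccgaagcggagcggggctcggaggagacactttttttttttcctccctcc
Ezh1 (chr11:101226414-101226713, minus strand): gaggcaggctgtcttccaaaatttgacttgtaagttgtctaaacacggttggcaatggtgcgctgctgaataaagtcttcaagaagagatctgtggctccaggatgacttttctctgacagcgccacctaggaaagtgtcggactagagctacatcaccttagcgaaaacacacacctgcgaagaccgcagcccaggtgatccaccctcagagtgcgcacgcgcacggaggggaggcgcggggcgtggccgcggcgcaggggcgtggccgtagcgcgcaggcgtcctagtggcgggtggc

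Those E2F-type letters were present in a window of 4 of the 10 genes, namely Dnmt1, Uhrf1, Ezh2 and Suz12, against 2.1% of 27025 genes with a window. They stood in 1.8% of 32817 windows, and in 4.4% of the 8684 windows with at least 20 CpG pairs. Dnmt1 has 3 windows and Uhrf1 has 2, and the letters are in the third and the second of these, counted by distance from the annotated 5′ end. In Dnmt1 they begin at -219 and at 33 from the start site, in Uhrf1 at -185, in Ezh2 at 3 and in Suz12 at -219. The shorter letters CCAAT, searched on both strands, were in a window of 6 of the 10 genes, against 41.1% of genes. None of the E2F-type matches overlapped a CCAAT match. The window of Tet2 held 57 CpG pairs and that of Suz12 41, and the 3 windows of Dnmt3a held 46, 47 and 18, where the median of all windows was 7. Which of several starts the reads came from is not known. Ezh1 is shown because it alone of the 10 was called higher in cKO MED1, and its window held 23 CpG pairs and none of the E2F-type letters. Of the genes with E2F-type letters, Dnmt1 and Uhrf1 were called lower in cKO MED1, and Ezh2 and Suz12 were not called. Dnmt3a and Eed, also called lower, had none of these letters. The matches describe letters only.

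Recovered reads ranged from 54736580 to 61149274 in WT and from 31937372 to 49603193 in cKO MED1. Values below are normalised reads, scaled with TMM factors to a common library of 48019763 reads. Med1 stood at 53.9% of the WT level in cKO MED1 (-0.89 in log2 with SE 0.09, adjusted p = 0.000174 by limma). Y-linked Ddx3y was at 4496 to 4895 reads in WT and at 4469.9 in cKO MED1 replicate 3, but at 4.07 or less in the other 3 cKO MED1 libraries, so sex went largely with genotype. Xist was at 36381 to 41073 reads in those 3 libraries, at 1241 in WT replicate 2 and at 59.2 or less in the others. For all 6 B cell markers every cKO MED1 library was below every WT library, as for 19.8% of all tested genes. Of the 6, 5 were called lower, against 14.6% of all tested genes and 27.8% of the third with the highest means. Cd79a was at 13252 to 15246 reads in WT and 6843 to 8461 in cKO MED1. Ms4a1 was at 42276 to 51631 and 24992 to 32172, and Cd79b at 28969 to 31794 and 21853 to 24840.2. Marker lists of T cells (at most 163 reads in sum), NK cells (122), neutrophils (78.7) and mast cells (82.4) were low, and none of their genes was at 0 in all libraries. Sums for macrophages were 433 to 692 in WT and 541 to 776 in cKO MED1. Those for plasma cell genes were 81756 to 124143 and 59845 to 82565, with 2 of 6 genes called higher and 2 lower. In that list Jchain ranged from 35622 to 62597 in WT and 10728 to 27607 in cKO MED1, and Prdm1 from 2150.2 to 3436 and 3696 to 4758. Dendritic cell markers summed to 2383 to 3333 and 3495 to 4625 without overlap, nearly all of it Flt3 and Zbtb46. Erythroid markers summed to 135 to 247 and 134 to 484, and stromal and endothelial markers to 1390.1 to 1632 and 1018 to 1219, mostly Pecam1. The part of such cells in the results was not tested. In bulk RNA, fewer cells of a type and less RNA per cell cannot be told apart.

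The maintenance pair fell together, with the largest falls among the 10. Dnmt1 lies on chromosome 9 from 20907209 to 20959888 in GRCm38. It stood at 12936, 10026 and 10856 reads in WT replicates 1 to 3 and at 8674, 7347, 7553 and 6411 in cKO MED1 replicates 1 to 4. Every cKO MED1 library was below every WT library. Averages were 11273 ± 1499 (SD, n = 3) and 7496 ± 929 (SD, n = 4), a log2 fold change of -0.59, with SE 0.12 and an adjusted p = 0.00791 by limma.

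Uhrf1, on chromosome 17 from 56303321 to 56323486, held 11212, 9049 and 9063 reads in WT and 7205, 6265, 6586 and 4833 in cKO MED1. The groups did not overlap, and replicate 4 was the lowest for this gene as for Dnmt1. Averages were 9774 ± 1245 (SD, n = 3) and 6222 ± 1005 (SD, n = 4), which left 63.7% of the WT level (-0.66 in log2 with SE 0.14, adjusted p = 0.00791 by limma). Within a library the Dnmt1 to Uhrf1 ratio, in reads per kb of exon, moved little. Its log2 value was -0.59 ± 0.06 (SD, n = 3) in WT and -0.52 ± 0.09 (SD, n = 4) in cKO MED1, a difference of 0.07 that was within the replicate spread (two-sided exact permutation p = 0.371).

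Of the de novo enzymes, Dnmt3a fell and Dnmt3b did not pass the test. Dnmt3a, on chromosome 12 from 3806007 to 3914443, held 4256, 4085 and 3811 reads in WT and 3531, 3422, 2745 and 2815 in cKO MED1. Replicates 3 and 4 were the lowest and the groups did not overlap. Its fall from 4051 ± 225 (SD, n = 3) to 3128 ± 406 (SD, n = 4) gave a log2 fold change of -0.38, with SE 0.11 and an adjusted p = 0.0257 by limma. Without both of those replicates the difference was -0.21 and the call ended (limma adjusted p = 0.137), as it did without either alone and without WT replicate 1.

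Dnmt3b, on chromosome 2 from 153649450 to 153687730, was the least expressed of the 10. It held 311, 271 and 261 reads in WT and 243, 215, 219 and 218 in cKO MED1. Although the groups did not overlap, its log2 fold change of -0.33 (SE 0.12) missed the threshold (limma adjusted p = 0.0548). It was called lower in 7 of 24 alternatives, among them edgeR's quasi-likelihood test on recovered reads (adjusted p = 0.044). The Dnmt3a to Dnmt1 ratio per kb had log2 values of -2.64 ± 0.16 (SD, n = 3) in WT and -2.44 ± 0.15 (SD, n = 4) in cKO MED1, and the groups overlapped (exact permutation p = 0.171, adjusted p = 0.229 over 4 ratios).

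Neither Tet gene was called. Tet2, on chromosome 3 from 133463679 to 133545139, encodes a TET enzyme known as a suppressor of blood cancers. It held 4601, 3932 and 5255 reads in WT and 6115, 5178, 4664 and 6469 in cKO MED1. The groups overlapped, with means of 4596 ± 661 (SD, n = 3) and 5607 ± 832 (SD, n = 4), and the log2 fold change of 0.28 (SE 0.13) did not pass (limma adjusted p = 0.119).

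Tet3, on chromosome 6 from 83362373 to 83459084, held 2494, 2202 and 2384 reads in WT and 2657, 2332, 2047 and 2300.5 in cKO MED1. The cKO MED1 libraries lay on both sides of the WT range. Its log2 fold change was -0.02 with a 95% interval from -0.24 to 0.20 (limma adjusted p = 0.89). Within a library the Tet3 to Tet2 ratio per kb was lower in all 4 cKO MED1 libraries than in any WT library, though the nearest were close at -1.14 and -1.13. The log2 ratio was -0.94 ± 0.16 (SD, n = 3) in WT and -1.24 ± 0.16 (SD, n = 4) in cKO MED1, with an exact permutation p = 0.0286, the smallest that 35 assignments allow, and adjusted p = 0.0571 over the 4 ratios. With so few assignments, the adjusted p of 4 ratios can fall below the threshold only when most of them reach the smallest value.

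Of the catalytic subunits of PRC2, Ezh1 passed the test and Ezh2 did not. Ezh1 was the 1 gene of the 10 called higher. It lies on chromosome 11 from 101191115 to 101226463, about 3.00 Mb from Med1 on the same chromosome. Its reads were 1126, 1264 and 1336 in WT and 2274, 1883, 1702 and 2136 in cKO MED1, so that the lowest cKO MED1 library stood above the highest WT library. The means of 1242 ± 107 (SD, n = 3) and 1999 ± 256 (SD, n = 4) gave a log2 fold change of 0.68, with SE 0.11 and an adjusted p = 0.00276 by limma. With reads scaled to their totals the change was 0.44 and just missed the threshold (limma adjusted p = 0.0518).

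Ezh2, on chromosome 6 from 47530139 to 47595341, held 3860.4, 3408 and 3753 reads in WT and 3669, 3805, 3398 and 2968 in cKO MED1. Replicate 4 was below the WT range, replicate 3 marginally so, and the other 2 lay inside it. Its log2 fold change of -0.09 had a 95% interval from -0.31 to 0.13 (limma adjusted p = 0.51). Per kb of exon, Ezh2 exceeded Ezh1 in each library, but by less in cKO MED1. The log2 ratio of Ezh1 to Ezh2 was -1.93, -1.59 and -1.65 in WT and -0.85, -1.17, -1.15 and -0.63 in cKO MED1. Its difference of 0.77 had an exact permutation p = 0.0286, the smallest possible, and adjusted p = 0.0571 over the 4 ratios. The limit given for the Tet3 to Tet2 ratio holds here too. The difference lay between 0.67 and 0.85 when any 1 library was left out.

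**Figure D1:**
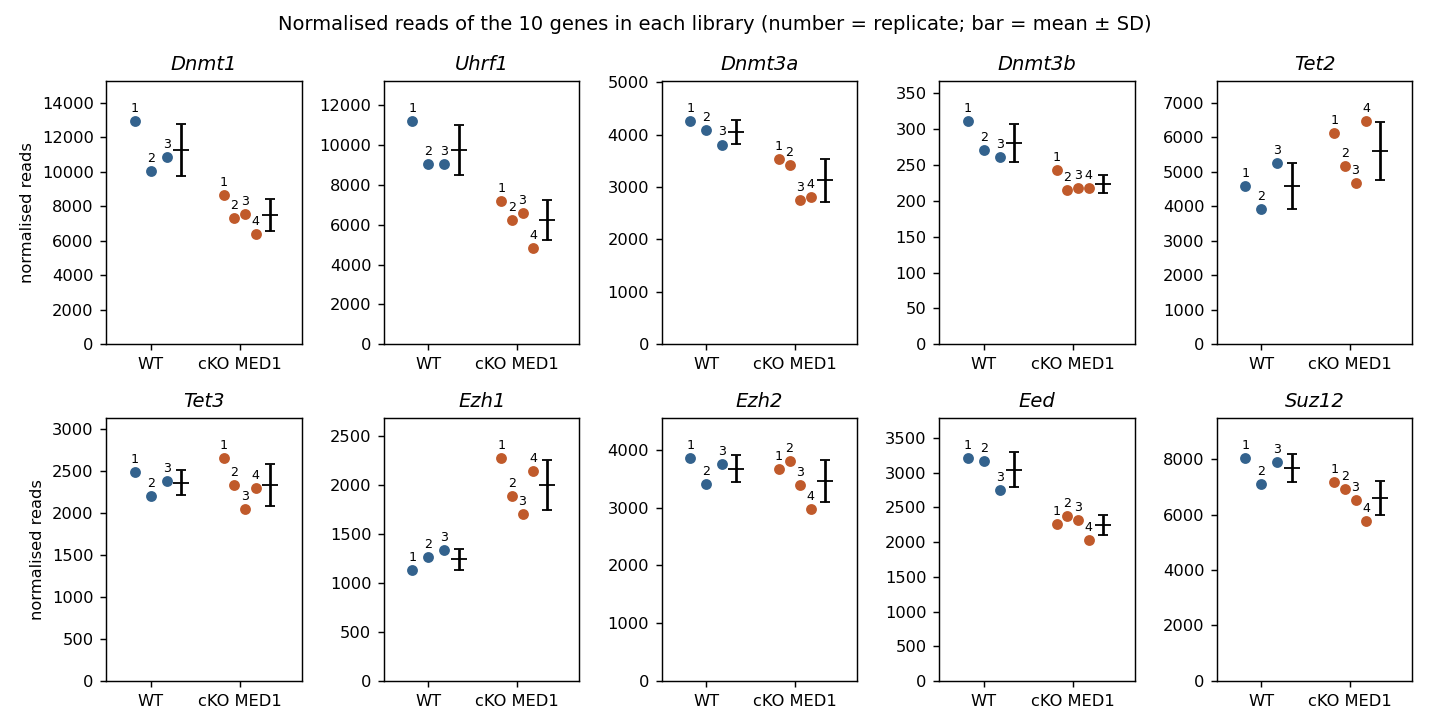
Normalised reads of each gene (vertical axis, from 0) in the 3 WT and 4 cKO MED1 libraries; points carry replicate numbers, and bars show mean and SD. Dnmt1, Uhrf1, Dnmt3a, Dnmt3b and Eed lie below all WT libraries in cKO MED1, Ezh1 lies above them, and the other 4 genes overlap.

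The scaffold subunits of PRC2 were lower, Eed beyond the threshold and Suz12 not. Eed, which binds the mark that PRC2 makes, lies on chromosome 7 from 89954654 to 89980983. It held 3213, 3173 and 2749 reads in WT and 2257, 2373, 2317 and 2035 in cKO MED1. The cKO MED1 libraries lay close together and below all of WT, with means of 3045 ± 257 (SD, n = 3) and 2246 ± 148 (SD, n = 4) and a log2 fold change of -0.44, with SE 0.09 and an adjusted p = 0.00848 by limma.

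Suz12, on chromosome 11 from 79993106 to 80034123, held 8044, 7091 and 7896 reads in WT and 7183, 6905, 6540.3 and 5763 in cKO MED1. The highest cKO MED1 library lay inside the WT range. Its log2 fold change was -0.22, with SE 0.10 and adjusted p = 0.111 by limma.

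In all, limma called 5065 of 18062 tested genes (28%). Of the 10 genes, 4 were called lower (Dnmt1, Uhrf1, Dnmt3a and Eed), where 14.6% of all 18062 tested genes were. Ezh1 alone was called higher, where 13.4% were. All 10 passed the filter on low reads, and 9 were in the third of genes with the highest means, where 27.8% were called lower and 5.6% higher. Dnmt3b was among the genes of middle rank, with 15.2% lower and 13% higher. The groups did not overlap in 5 genes lower and 1 higher in cKO MED1, against 19.8% and 19.3% of all tested genes. The median log2 fold change was -0.27 for the 10 and 0.04 for all tested genes.

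The choice of scaling shifted the values of most genes together. The median of all tested genes went from 0.04 to -0.20 with total reads, to -0.12 with TMM factors from all genes with a read, and to 0.15 with factors from genes at a CPM of at least 1 in 3 libraries. Under the first of these 31.8% of called genes were higher, under the last 66.2%, and here 47.8%. Dnmt1, Uhrf1 and Eed stayed lower and called under each of these scalings, with log2 fold changes no nearer to 0 than -0.48, -0.55 and -0.32. The signs of Ezh2 and Tet3 turned with the last of them.

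**Figure D2:**
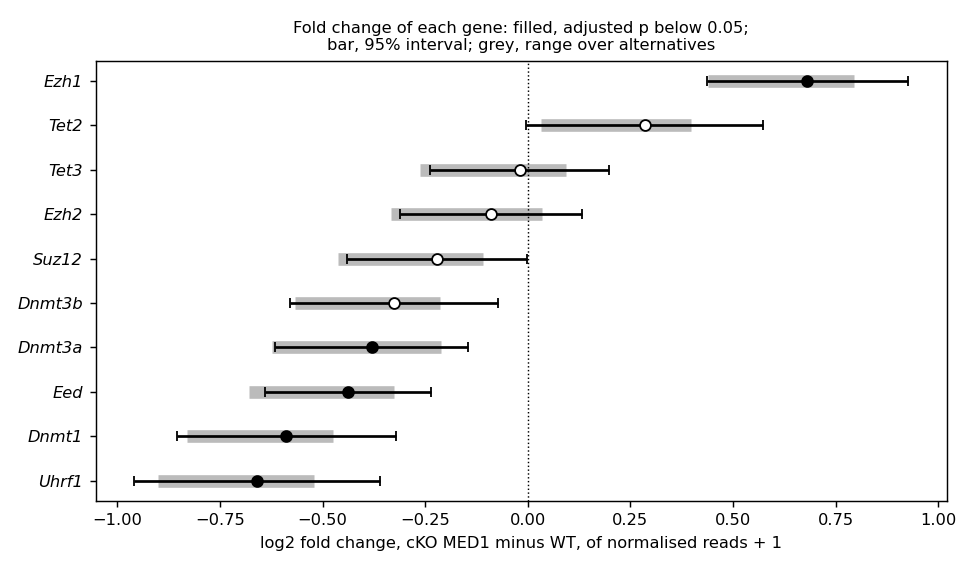
Log2 fold change of normalised reads + 1, cKO MED1 minus WT, for each gene, with its 95% interval (bar) and its range over 24 alternative settings (grey); filled points passed limma's adjusted p of 0.05. The values run from -0.66 for Uhrf1 to 0.68 for Ezh1, and the grey ranges of Tet3 and Ezh2 cross 0.

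Sex and genotype cannot be fully told apart with these libraries. With sex as a covariate, where only cKO MED1 replicate 3 shares its sex with WT, limma called 0 of the 10 genes, 5 at an unadjusted p under 0.05, and 228 genes in all. The log2 fold changes were then -0.57 for Dnmt1, -0.56 for Uhrf1, -0.56 for Dnmt3a, -0.39 for Eed and 0.46 for Ezh1 (limma adjusted p = 0.174, 0.193, 0.12, 0.185 and 0.164). These fold changes equal the deviation of replicate 3, the library with Ddx3y reads, from the WT mean, and rest on that library alone. In it Dnmt1, Uhrf1, Dnmt3a and Eed were below, and Ezh1 above, all WT libraries, which restates the same values. By edgeR's test and by DESeq2, both without that covariate, 5 and 4 of the genes were called lower and 1 higher.

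Levels can be compared between genes per kb of exon. In WT the order was Uhrf1 (2295 reads per kb), Suz12 (1553), Dnmt1 (1528), Eed (795), Ezh2 (550.1), Tet2 (272), Dnmt3a (243), Ezh1 (167), Tet3 (141) and Dnmt3b (55.0). Suz12 and Dnmt1, and Tet2 and Dnmt3a, had overlapping ranges. In cKO MED1 Ezh1, at 269 ± 34.4 (SD, n = 4) reads per kb, stood above Dnmt3a, at 188 ± 24.4 (SD, n = 4), where in WT it had stood below it. There the ranges of Uhrf1 and Suz12, of Suz12 and Dnmt1, of Eed and Ezh2 and of Tet2 and Ezh1 overlapped.

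Genes of the cell division cycle moved along with the maintenance pair. Of 25 such genes, 23 were called lower and 0 higher, with a median log2 fold change of -0.56. Over all tested genes 14.6% were called lower and 13.4% higher. Of the 25, 22 were in the third of genes with the highest means, where 27.8% were called lower and 5.6% higher. With sex as a covariate 0 of the 25 were called. The 4 with the smallest adjusted p were the replication helicase genes Mcm2 (-0.81), Mcm5 (-0.82), Mcm3 (-0.73) and Mcm7 (-0.64). The mean of the list, on the log2 scale relative to WT, was 0.23, -0.11 and -0.12 in WT and -0.48, -0.44, -0.38 and -0.82 in cKO MED1. Its lowest library, replicate 4, was also the lowest for Dnmt1, Uhrf1, Ezh2, Eed and Suz12. Replicate 3, where the list was highest among the cKO MED1 libraries, was the lowest of them for Dnmt3a, Tet2, Tet3 and Ezh1.

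Against that list mean in the same library, Dnmt1 differed between groups by -0.06 (exact permutation p = 0.543) and Eed by 0.09 (exact permutation p = 0.343). Uhrf1 was at 1.27, 1.30 and 1.31 in WT and at 1.35, 1.10, 1.11 and 1.11 in cKO MED1. Replicates 2 to 4 were thus below all WT libraries and replicate 1 above them. The difference was -0.13 (exact permutation p = 0.143), and -0.19 without replicate 1. Ezh1 was higher by 1.21 and Ezh2 by 0.44, with no overlap between groups and an exact permutation p = 0.0286 for each. Over the 10 genes the adjusted p was 0.143 for both, and no gene passed, while 2 had an unadjusted p under 0.05. With 35 assignments, the adjusted p of 10 genes can fall below the threshold only when several of them reach the smallest value. Tet2 and Tet3 were higher by 0.82 and 0.51 against the list (exact permutation p = 0.0571 and 0.0571), and Suz12 by 0.31 (0.0857). The list was chosen with earlier results of these data known, and it fell in cKO MED1. A gene that changed little therefore stands higher against it. Before this comparison the log2 fold changes of Ezh2 and Tet3 were -0.09 and -0.02. The part of cell division in the differences between genotypes was not tested beyond these values.

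**Figure D3:**
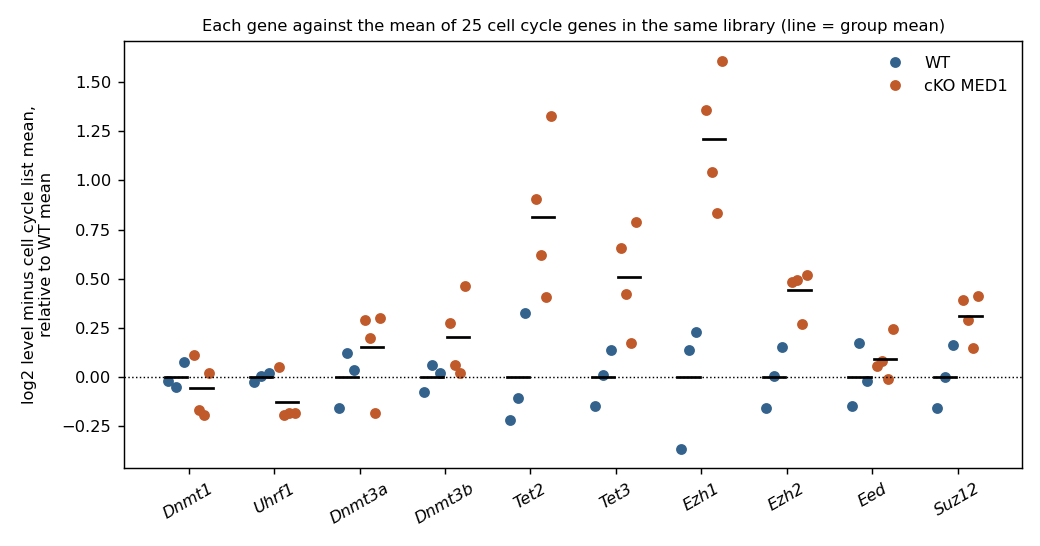
Log2 level of each gene minus the mean of 25 cell cycle genes in the same library, set to 0 at the WT mean; points are libraries and lines group means. In cKO MED1 the mean of Dnmt1 is at -0.06, and 3 of the 4 Uhrf1 points lie below all WT points (mean -0.13), while Ezh1 stands at 1.21 and Ezh2 at 0.44. The list itself was lower in cKO MED1.

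Partners and readers of DNA methylation fell in 7 of 22 cases and rose in 0, with a median log2 fold change of -0.09. Of the 22, 16 were in the third of genes with the highest means, where 27.8% of all genes were called lower, so this count is near the background. Tdg, the glycosylase that excises oxidised methylcytosine, averaged 1870.5 ± 232 (SD, n = 3) reads in WT and fell to 1029 ± 171 (SD, n = 4) (-0.87 in log2 with SE 0.13, adjusted p = 0.002 by limma). With sex as a covariate its log2 fold change was -1.16, which rests on cKO MED1 replicate 3 alone. Tdg was lowest in that library, at 835 reads against 935 to 1176 in the other cKO MED1 libraries. The annotation also holds a processed pseudogene of Tdg, with which reads can be shared. Hells, a remodeller needed for methylation of repeats, and its partner Cdca7 each had a log2 change of -0.69 (adjusted p = 0.00399 and 0.00331 by limma). Ahcy, which clears the by-product of methyl transfer, fell by 0.53 (limma adjusted p = 0.0103). The reader Mbd1 and the Uhrf1 relative Uhrf2, named after their values were seen, were at 0.02 and -0.04 and did not pass.

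Accessory genes of PRC2 fell in 3 of 9 cases and rose in 1 (median -0.29). With 5 of the 9 in the third with the highest means, this too is near the background of 27.8% lower there and 14.6% over all genes. Rbbp7, a histone-binding subunit, averaged 8227 ± 966 (SD, n = 3) reads in WT and 5791 ± 854 (SD, n = 4) in cKO MED1 (-0.51 in log2 with SE 0.13, adjusted p = 0.0174 by limma). Epop, listed in the table under its older name E130012A19Rik, fell by 0.71 and Mtf2 by 0.29 (limma adjusted p = 0.0192 and 0.0385). Jarid2, a cofactor that helps place PRC2, rose by 0.32 from 1694 ± 129 to 2111 ± 192 reads (limma adjusted p = 0.0337). None of the 9 was called once sex was a covariate.

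In Polycomb repressive complex 1, which reads the PRC2 mark and ubiquitinates histone H2A, 3 of 23 genes fell and 2 rose (median -0.06), where 14.6% and 13.4% of all tested genes did. None was called with sex as a covariate. L3mbtl2 (-0.65), Pcgf6 (-0.46) and Bmi1 (-0.32) fell, and Scmh1 (0.44) was among those that rose (limma adjusted p = 0.00279, 0.0256, 0.0232 and 0.028). Rnf2 and Ring1 lie outside the rule for named genes and were named after their values were seen. These catalytic subunit genes were at -0.21 and -0.0035 and did not pass.

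Among 11 genes that oppose Polycomb silencing or remove its marks, 3 rose and 1 fell (median 0.21). The 3 include X-linked Kdm6a, whose reads split by the sex of the library, as given below. Of the 11, 10 were in the third with the highest means, where 5.6% were called higher and 27.8% lower. Over all tested genes these shares were 13.4% and 14.6%. Kdm6b, which removes the PRC2 mark, averaged 465 ± 27.4 (SD, n = 3) reads in WT and 610.3 ± 77.9 (SD, n = 4) in cKO MED1 (0.38 in log2 with SE 0.12, adjusted p = 0.0331 by limma). Kmt2a, a methyltransferase of active genes, rose by 0.33 and Bap1, a deubiquitinase, fell by 0.27 (adjusted p by limma = 0.0415 and 0.0337). Kdm6a, the X-linked relative of Kdm6b, was called higher (0.63), and its reads were at 4310.4, 4283 and 4275 in cKO MED1 replicates 1, 2 and 4 but at 2282 in replicate 3, the library with Ddx3y reads, and at 2312 to 2440.04 in WT. With sex as a covariate none of the 11 was called.

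**Figure D4:**
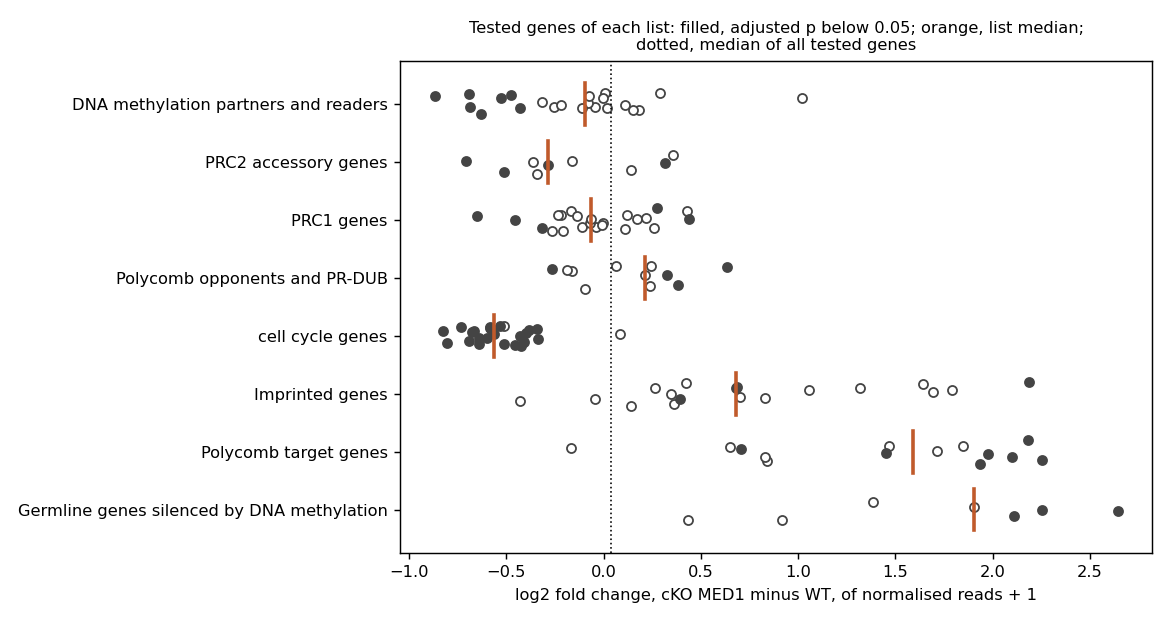
Log2 fold change, cKO MED1 minus WT, of the tested genes of 8 lists (rows); filled points passed limma's adjusted p of 0.05, orange lines are list medians and the dotted line is the median of all tested genes at 0.04. Cell cycle genes lie to the left with a median of -0.56, and the 3 lists of silenced and imprinted genes, mostly of few reads and selected by the filter, lie to the right.

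Genes commonly silenced by these systems had few reads. Of 50 Polycomb target genes, mainly Hox genes, 14 passed the filter, of 16 germline genes 7, and of 25 imprinted genes 18. A gene with few reads passes mainly where 1 group is high, so counts among those that passed are no measure of the lists, and 21.6% of the third of genes with the lowest means were called higher and 0.93% lower. The highest of the named Hox genes, Hoxb4, stood at 89.5, 78.3 and 83.0 reads in WT and 126, 154, 121 and 148 in cKO MED1, with no overlap (0.70 in log2 with SE 0.15, adjusted p = 0.00977 by limma). Cdkn2a and Cdkn2b, targets with more reads in WT than Hoxb4, were named after their values were seen. They were at -0.17 and 0.65 in log2 and did not pass (limma adjusted p = 0.622 and 0.0555). Hoxb3 averaged 22.6 ± 7.47 (SD, n = 3) reads in WT and 62.6 ± 13.9 (SD, n = 4) in cKO MED1. Hoxa3 averaged 4.90 and 28.5 reads and Hoxd9 2.61 and 14.4, and for genes this low in WT no test is given, since cKO MED1 carried them past the filter.

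Germline and imprinted genes gave similar values. Mov10l1, a piRNA pathway gene, had 1.38, 8.16 and 0.798 reads in WT and 12.2, 15.6, 25.02 and 34.8 in cKO MED1. Taf7l averaged 2.62 and 14.4 reads, Stk31 3.74 and 19.6, and the imprinted gene Igf2 3.69 and 24.0. Of the 18 imprinted genes tested, 3 were called higher and 15 were not called, where 13.4% of all tested genes were called higher. Igf2 is among the 3 and was carried past the filter by cKO MED1, so this count is no measure of the list. Among the called were Igf2r, at 4478 ± 733 (SD, n = 3) and 5839 ± 508 (SD, n = 4), and Peg13, at 178 ± 22.6 and 287 ± 40.8. They rose by 0.39 and 0.68 in log2 (adjusted p by limma = 0.0321 and 0.00848). Gnas, Impact, Kcnq1ot1 and Zrsr1 had more reads in WT than Peg13, and were named after their values were seen. These were at -0.04, 0.14, 0.35 and 0.36 in log2 and did not pass (limma adjusted p = 0.77, 0.284, 0.0758 and 0.058).

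Reads of genes with no expected use in B cells moved with these low genes. Olfactory and vomeronasal receptor genes gave 0.093, 0.207 and 0.168 reads per kb of exon in WT and 0.198, 0.279, 0.529 and 0.902 in cKO MED1. Mean log2 levels of the Polycomb target list, relative to WT, were 1.00, 0.89, 1.90 and 1.87 in cKO MED1 replicates 1 to 4, and those of the germline list 1.00, 1.14, 1.91 and 2.60. Neutrophil markers summed to 2.75 to 11.4 reads in WT and 18.97 to 78.7 in cKO MED1, with S100a9 at 0 in all WT libraries, and their mean log2 levels relative to WT were 1.27, 1.42, 2.32 and 2.98 in cKO MED1 replicates 1 to 4. Those of stromal markers were 0.30, 0.73, 1.38 and 2.07, of T cell markers -0.57, 0.82, 1.25 and 1.73, and of mast cell markers -0.40, 0.76, 1.22 and 1.90. The part of such cells in these values was not tested. With sex as a covariate none of these lists had a called gene. For the 10 genes themselves that level was at most 2.12% of the reads of any library, reached by Dnmt3b.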

How the data were processed

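RNA-seq values of 7 libraries were analysed. The deposited table holds, per gene, a signal made of read counts divided by 1 size factor per library. Dividing each value by the lowest non-zero step in its column gave whole reads for 100% of values (tolerance 1e-06), and these reads were used. Per the labels' protocols, total RNA was depleted of ribosomal RNA and made into stranded libraries (14 cycles, paired 150 bp reads). The tools were STAR (2.4.0a), DESeq2, featureCounts with Subread (1.5.0-p3) and R (3.4), and the build was GRCm38 (mm10), per the submitters' processing notes. Their order and the strand setting of counting are not given in the sources used here. Dnmt3a, Tet2, Ezh2, Eed and Suz12 share exonic bases with antisense genes, and the 4 of these in the table had at most 13 reads in any library.

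Library scaling used TMM factors (edgeR 4.0.16) from the 18062 genes that filterByExpr kept. Genes were tested with limma 3.58.1 (R 4.3.3, intensity trend) on log2(normalised reads + 1), with Benjamini-Hochberg adjustment over all these genes and a threshold of 0.05. Fold changes on this log2(value + 1) scale understate those of low genes. Ratios were tested with two-sided exact permutation over 35 assignments. The fit was checked on simulated reads, where it made some false calls, mostly among genes of few reads. Exonic lengths and positions are from GENCODE M21 (GRCm38), which matched 93.9% of features by symbol. Promoters are RefSeq's.

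The members, lists and tests were chosen with earlier results of these data known. Named genes are the 10 members, Med1 and up to 4 genes per pathway, target or cell cycle list with the smallest adjusted p. List genes named after their values were seen are marked so in the text. Alternatives were other scalings, filters, a pseudocount of 5, edgeR, DESeq2 1.42.0, limma-voom, the replicate number as a block, sex, background subtraction, a threshold of 0.01 and left-out libraries. Pooled background and both other TMM gene sets were added after seeing the data. A few genes of the lists are counted but not reported by name here.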

Additional observations from a re-analysis of the deposited data

Results flagged for a closer look

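Among the 4 cKO MED1 libraries, 1 value stood far from the other 3 in 4 of 25 sets of values examined, where chance alone gives about 1 in 20. Dnmt3b was at 243 reads in replicate 1, above 215 to 219 in the others. The log2 ratio of Tet3 to Tet2 was -1.48 in replicate 4, against -1.19 to -1.14 in the others. Relative to the cell cycle list, Uhrf1 was at 1.35 in replicate 1, with the others between 1.10 and 1.11, and Ezh2 was at 0.16 in replicate 3, with the others between 0.37 and 0.41. The gap to the nearest library, over the whole range, exceeded Dixon's 95% critical value in each.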

How the results depend on the processing

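The 5065 called genes became 228 with sex as a covariate, 2145 without cKO MED1 replicates 3 and 4 together, 1307 at a threshold of 0.01 and 1556 to 6126 when 1 library was left out (1556 without WT replicate 1, 2812 without cKO MED1 replicate 4). The members called lower numbered 4, 0 with sex as a covariate, 3 to 5 with 1 library left out and at most 6 otherwise. The members called higher numbered 1, 0 with total reads or sex as a covariate, and 2 with TMM factors from genes at CPM 1 in 3 libraries, where Tet2 also passed. Calls of Dnmt1, Uhrf1 and Eed ended only with sex as a covariate among 24 alternatives each, that of Ezh1 there and with total reads, and that of Dnmt3a in 6. The sign of Tet3 turned with TMM factors from genes at CPM 1 (0.093), without cKO MED1 replicates 3 and 4 (0.086), and without cKO MED1 replicate 2, 3 or 4 (range with 1 library left out -0.13 to 0.063). That of Ezh2 turned with TMM factors from genes at CPM 1 (0.022), without cKO MED1 replicates 3 and 4 (0.033) and without replicate 4 (range with 1 library left out -0.20 to 0.0033). The causes were not tested. The 4 ratios moved by less than 1 SD in every alternative run, and the permutation tests cannot pass with a library left out, so those are values without a test.

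With the replicate number as a block, 3741 genes and the same 4 and 1 members in number were called, and 17 of the 25 cell cycle genes rather than 23. Deviations of same-numbered WT and cKO MED1 libraries correlated at 0.51, -0.23 and 0.16 over tested genes. The first of these was the highest of all pairs, while WT replicates 2 and 3 correlated best with cKO MED1 replicate 4. So few values cannot settle whether the numbers pair the libraries. No WT library shares the number of replicate 4. Depth was lower in every cKO MED1 library than in WT, which limits genes of few reads more than the 10 genes here.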
